A study of Mus musculus with 112 samples.

Results

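The 10 genes of the neuronal-type nicotinic acetylcholine receptor subunits Chrna2, Chrna3, Chrna4, Chrna5, Chrna6, Chrna7, Chrna9, Chrnb2, Chrnb3 and Chrnb4 were followed by DNA methylation (DNAme) across sperm and prefrontal cortex of mice from a paternal cigarette smoke (CS) study. Members were all CpG positions with a deposited value between 2 kb upstream of a gene's start and its end in the mouse mm10 build (GRCm38), which gave 900 of the 4388579 positions in the series, in 10 of 21938 protein-coding genes. The genes were listed by name and not by any measured value. DNAme was read by reduced representation bisulfite sequencing (RRBS), in which restriction enzymes enrich CpG-rich DNA and bisulfite converts unmethylated cytosines only. At each cytosine the value is the percent of its reads left unconverted, and the 2 cytosines of a CpG, 1 on each strand, were separate positions.

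The labels put the 112 libraries into 13 groups. For F0 sperm the donors were C57BL/6J males that were not exposed to CS (control WT, n = 10), were exposed (smoked WT, n = 9) or were exposed and then kept for 1 of 3 lengths of time without CS (recovery 1, n = 9, recovery 2, n = 10, and recovery 3, n = 10). Further F0 donors were unexposed (n = 10) and exposed (n = 9) Nrf2-/- males, whose Nfe2l2 gene, which encodes the oxidative stress regulator NRF2, was knocked out. For F1 sperm the donors were sons of control WT (n = 6) or smoked WT (n = 7) sires. F1 brain is prefrontal cortex of sons, with 8 libraries each for WT sires without and with CS and for Nrf2-/- sires without and with CS. All sons had mothers of the CAST/EiJ strain, and sons of Nrf2-/- sires carried 1 targeted allele and a WT allele from the mother. A sample of the control WT F1 brain group carried a WT title and an Nrf2-/- strain entry, was kept by its title, and could not be tied to a column. Brain tissue is a mixture of neurons and glia, so a percent there averages over cell types that these data cannot separate.

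Labels of tissue were checked against genes with known DNAme in sperm and body cells. The starts of germline genes (Dazl, Ddx4, Mael, Sycp3 and Tdrd1), which body cells methylate, were at 0 to 6.25% in the sperm groups and 58.6 to 91.6% in the brain groups. Starts of the imprinted genes with values (Grb10, Nnat, Peg3 and Peg10, 2 to 4 of them in a group) were at 0.117 to 5.33% in sperm and 15.1 to 33.3% in brain. Libraries held values at 510212 to 1855546 positions, with the sparsest libraries in F1 sperm, and mean DNAme per library ran from 30.6 to 44.3%. Smoked WT F1 brain column 8 was the library with the lowest mean (30.6%), and the WT and Nrf2-/- F0 libraries came from separate runs of facility library numbers, so that genotype and library run cannot be told apart in F0 sperm. Among 436 pairs of libraries within groups, 0.465 to 3.72% of the sampled percents above 0 and below 100 were identical, and no library was counted as a duplicate.

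Nicotinic receptors are pentameric cation channels that open when acetylcholine, or the nicotine of tobacco smoke, binds between subunits. The alpha subunits carry the paired cysteines of the binding site, and receptors of alpha4 and beta2 subunits hold most of the high-affinity nicotine binding in brain. Homomeric alpha7 receptors pass calcium. The alpha3 and beta4 subunits form the ganglionic receptor, and their genes lie with Chrna5 in 1 cluster, while Chrna6 and Chrnb3 are neighbours that are expressed together in dopamine neurons. Chrna9 encodes a subunit of the hair cell receptor. DNAme at a CpG-rich gene start is as a rule low, and DNAme inside gene bodies is as a rule high in body cells.

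Sequence is shown first for the coding stretch that holds the largest regional differences between sperm and brain, those of Chrna3 and Chrnb3. The stretch of Chrna3 exon 5 spans chr9:55015964-55016043, and the others are the best ungapped matches to it in the coding exons of the 5 further genes with values there: Chrna2 exon 6 (chr14:66148892-66148971), Chrnb3 exon 5 (chr8:27393719-27393798), Chrna5 exon 5 (chr9:55004433-55004512), Chrna6 exon 5 (chr8:27407289-27407368) and Chrnb4 (chr9:55035448-55035527), in mm10 coordinates. Each is printed 5′ to 3′ on the coding strand, which is the plus strand for Chrna2, Chrna5 and Chrnb3 and the minus strand for Chrna3, Chrna6 and Chrnb4. Capitals mark the CpGs with a methylation value in at least 4 control WT libraries of F0 sperm, F1 sperm or F1 brain.
Chrna3: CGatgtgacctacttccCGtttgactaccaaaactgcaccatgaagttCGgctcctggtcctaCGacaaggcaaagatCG
Chrna2: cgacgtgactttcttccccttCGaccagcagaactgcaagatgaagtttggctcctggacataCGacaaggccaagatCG
Chrnb3: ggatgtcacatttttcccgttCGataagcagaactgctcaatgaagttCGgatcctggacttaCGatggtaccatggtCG
Chrna5: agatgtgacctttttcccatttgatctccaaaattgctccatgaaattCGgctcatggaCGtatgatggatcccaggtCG
Chrna6: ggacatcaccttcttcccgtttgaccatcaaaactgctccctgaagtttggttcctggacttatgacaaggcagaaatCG
Chrnb4: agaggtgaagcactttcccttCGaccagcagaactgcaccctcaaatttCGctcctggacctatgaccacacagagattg

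A second set is shown because it holds sites with other patterns. The Chrna6 sequence is 30 bases of exon 1 (chr8:27413714-27413743, minus strand) that were methylated in sperm and less so in brain, and the Chrna7 sequence is an intron stretch near the start (chr7:63211981-63212066, minus strand) that was unmethylated in both tissues. Capitals mark measured CpGs here as well.
Chrna6 exon 1: cagccctcCGtgtagaaatCGgaattcaga
Chrna7 intron: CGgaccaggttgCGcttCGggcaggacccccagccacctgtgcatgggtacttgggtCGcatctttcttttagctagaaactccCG

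RRBS reached a small part of each gene. The 900 positions were 8.9% (Chrna9) to 18.7% (Chrna4) of the CpG cytosines in the windows. Chrna7 had the most positions (152), followed by Chrna4 (149), and Chrna6 had the fewest (40). Of them, 816 had an F0 sperm value, 549 an F1 sperm value and 602 a brain value. Tests used the cytosines with values in 4 or more libraries of each group in a tissue, called scoreable here, which left 365, 135 and 407. All 10 gene windows had 3 or more scoreable cytosines in F0 sperm and F1 brain, and 9 had them in F1 sperm, where Chrna5 had 2. The windows of Chrna3 and Chrnb4 overlap, as do those of Chrnb2 and Adar, but no scoreable cytosine was shared between Chrna3 and Chrnb4.

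The genes held very different levels in F0 sperm. In control WT libraries the window of Chrna6, at chr8:27403212-27413944 (ENSMUSG00000031491.10, with 2 kb added upstream on the minus strand), had a mean of 90.8% ± 2.23 (SD, n = 10), with a lowest, median and highest library of 86.8, 91.2 and 93.7%. Chrna9 followed at 53.1% ± 1.60 (n = 10) and Chrnb4 at 33.7% ± 2.39 (n = 10). These 3 windows did not overlap one another in any library.
The next 6 windows lay close together, with means of 24.95% (Chrnb3), 22.6% (Chrna5), 21.0% (Chrna4), 20.9% (Chrna2), 18.6% (Chrna7, n = 7) and 14.7% (Chrnb2), and neighbours in this order overlapped between libraries, except that all Chrna7 libraries lay above all Chrnb2 libraries. Chrna3 was lowest at 5.96% ± 1.33, with libraries from 3.90 to 8.97%. These levels were averages over different mixes of gene start and gene body, since each window was read only where RRBS fragments fell.

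Gene starts were separated from gene bodies by taking the promoter part, from 2 kb upstream to 500 bp downstream of the start. For Chrna7 and Chrnb2, the subunits of the homomeric and the most common heteromeric brain receptors, no group of either tissue exceeded a mean of 1.41% in the promoter part. For Chrna3 all group means of F0 sperm and brain lay between 1.47 and 2.75%, and for Chrnb4 between 2.17 and 2.64% in F0 sperm and between 4.06 and 4.97% in brain. These 4 starts were nearly unmethylated in both tissues.
The starts of the other genes were not alike. Chrna2 had 1 scoreable cytosine there, at group means of 78.3 to 91.9% in F0 sperm, and Chrna9 had none. Chrna5 had 4 scoreable cytosines there, at group means of 1.87 to 3.56% in F0 sperm and 39.4 to 40.1% in brain. A second annotated start of Chrna5 lies outside this part, and the stretch beside it (chr9:54981575-54981841) was at 0.453% in control WT brain. Chrna6 went the other way from the 4 Chrna5 cytosines. Its group means were 92.3 to 98.5% in F0 sperm (2 cytosines) and 33.1 to 38.3% in brain (4 cytosines). Chrnb3, its neighbour, was at 88.0 to 90.8% in F0 sperm (2 cytosines) and 64.9 to 76.1% in brain (5 cytosines). The cytosines scored differed between tissues, so these are levels and not differences. Chrna4 had no scoreable position in the promoter part, and a CpG-rich stretch 4542 to 4707 bases from its annotated start, in an intron and the edge of an alternative first exon, was at 0.273% in control WT F0 sperm and 1.30% in control WT brain over 10 shared cytosines (chr2:181038839-181039004).

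The base composition of the starts was read from RefSeq promoter sequences of the same build, from 250 bases before to 50 after a start, which matched 7 of the 10 genes. Over all 32851 promoters the median was 7 CpGs. Chrna7 held 35, more than 93.0% of promoters, and Chrna4 held 33. The Chrna4 entry (chr2:181039128-181039427) lies inside the gene, near the low stretch named above, and not at the start used for its window. Chrna5 had 2 entries, with 25 and 5 CpGs. Chrna3, Chrnb4, Chrnb2 and Chrna9 held 18, 14, 12 and 6. The Chrna9 entry (chr5:65966874-65967173) lies far downstream of the start used for its window (chr5:65934921). Chrna2, Chrna6 and Chrnb3 had no entry.

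**Figure D1:**
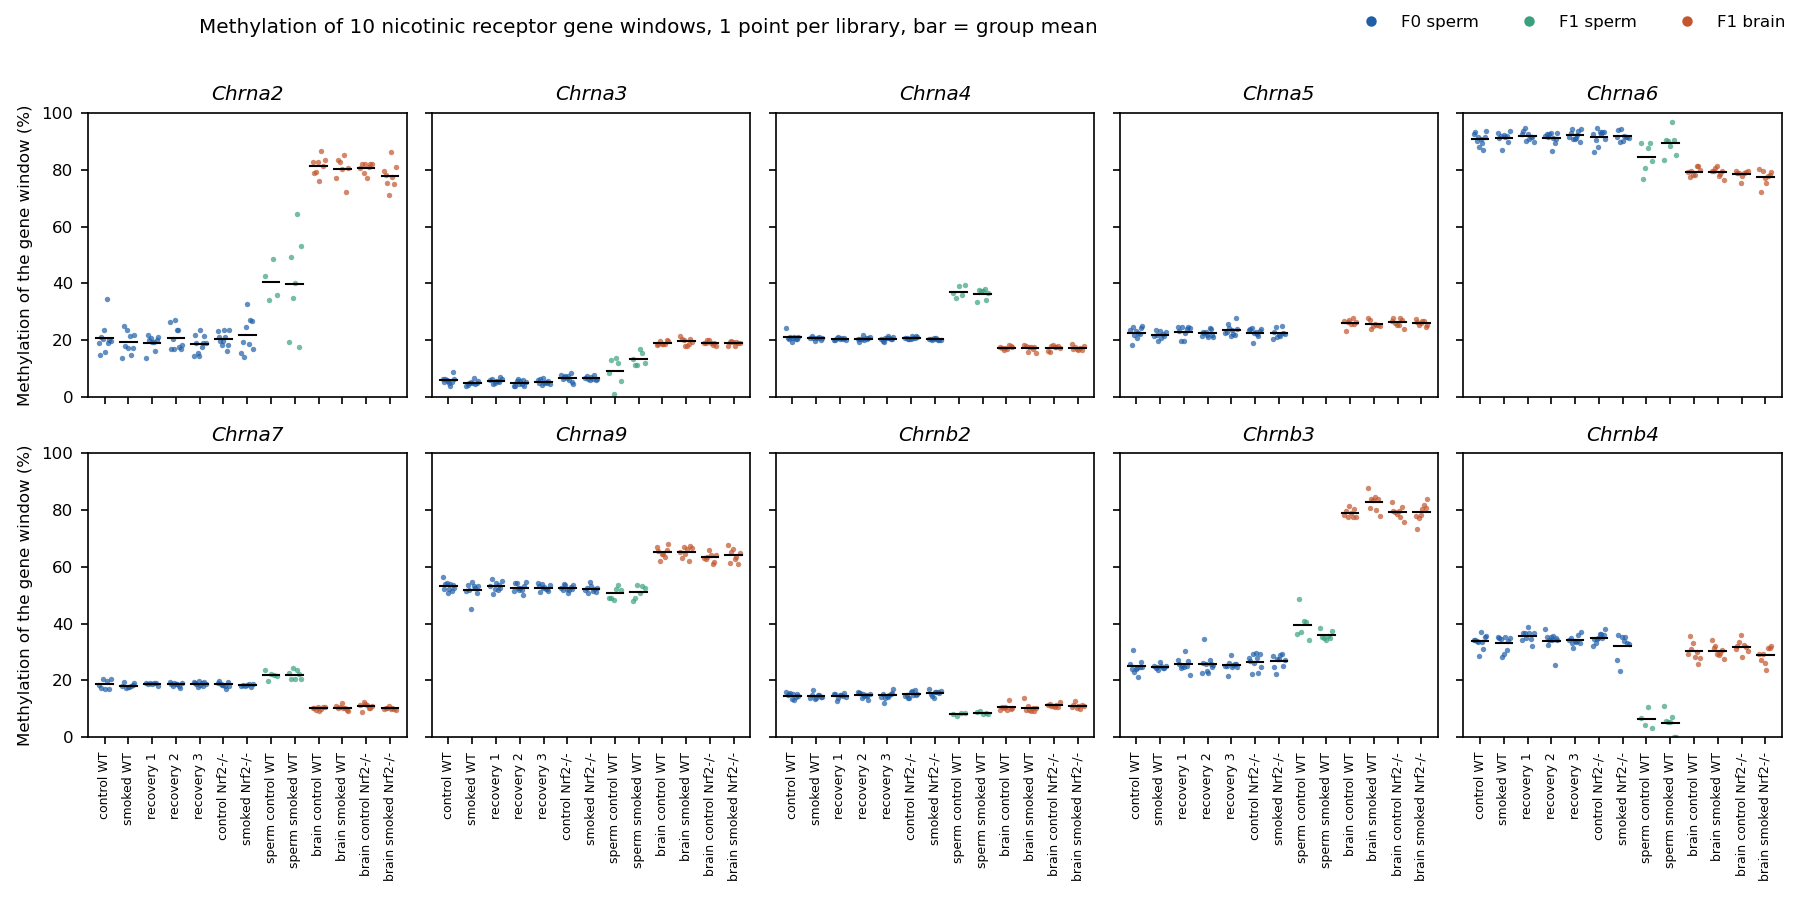
Methylation of the window of each gene (y axis, percent) in the 13 groups (x axis), with 1 point per library and a bar at the group mean. Windows use the cytosines scoreable in each tissue, so levels compare within a tissue only. Within F0 sperm the group means of a gene lay at most 3.61 points apart (Chrnb4), and F1 sperm is absent for Chrna5, which had 2 scoreable cytosines there.

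Brain and sperm were compared in sons of control WT sires, at cytosines scoreable in both, with the linear model of limma over all features and Benjamini-Hochberg adjustment (threshold 0.05). Of the 9 gene windows tested, 5 were higher in brain and 3 lower (8 called). Over all 15150 windows 66.1% were called (41.2% higher and 24.9% lower in brain), so a call by itself does not mark these genes out. Of 11 regions, which join scoreable cytosines up to 100 bp apart, 4 were higher and 2 lower, beside 55.2% called of all 30914 regions (29.4% higher and 25.8% lower). Of 135 single cytosines, 52 were higher and 21 lower, beside 41.3% called of 451625 (24.5% higher and 16.8% lower). The median difference of the 9 windows was 9.19 percentage points, which is the Chrna9 value, and that of all windows 0.772. With every library shifted to a common mean these medians were 2.23 and -3.79.

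In 4 genes the window was over 40 points higher in brain than in F1 sperm, over the few cytosines that F1 sperm scored. The size varied with the cytosines and with the sperm taken. At the cytosines scoreable in F0 sperm and brain, control WT means were 5.70 and 21.3% for Chrna3 (31 cytosines) and 26.8 and 37.0% for Chrnb4 (21). For Chrna2 (17) they were 17.1 and 87.1%, and for Chrnb3 (20) 35.0 and 88.05%. In Chrna3, which encodes the ganglionic alpha subunit, the F1 sperm libraries ran from 2.56 to 13.8% with a median of 10.4% (n = 6), and the brain libraries from 52.1 to 60.4% with a median of 55.6% (n = 8). The difference was 46.2 points (95% interval 42.5 to 50.0, adjusted p = 1.45e-11), over 11 cytosines. All brain libraries lay above all sperm libraries.
In Chrna2, an alpha subunit gene expressed in few cells of the cortex, the sperm libraries with a value were at 34.15, 35.9, 42.65 and 48.8%, and the brain libraries ran from 79.1 to 89.3% with a median of 85.2%. The difference was 44.4 points (38.5 to 50.4, adjusted p = 2.42e-08, 14 cytosines). Again the groups did not overlap.
Chrnb3, an accessory beta subunit, was at 43.7% ± 7.15 (n = 5) in sperm and 85.6% ± 2.90 (n = 8) in brain, a difference of 41.8 points (36.1 to 47.5, adjusted p = 1.15e-08). Of its 14 cytosines 11 were higher and 3 lower in brain, with differences from -63.5 to 77.3 points. Chrnb4, the ganglionic beta subunit, was at 0, 8.37, 14.5, 15.8 and 23.6% in sperm and between 45.1 and 69.6% in brain (median 53.8%), a difference of 42.9 points (33.4 to 52.4, adjusted p = 1.51e-06, 6 cytosines). Neither gene had an overlap between the tissues. The share of all windows without an overlap was not counted, so a lack of overlap does not mark these genes out.

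The other windows moved less. Chrna9 was at 49.9% ± 3.66 in sperm (n = 6) and 59.1% ± 2.49 in brain (n = 8), a difference of 9.19 points (adjusted p = 1.27e-04) that was 2.23 and no longer called under the common mean (adjusted p = 0.188). The lowest Chrna9 brain library (56.18%) lay just above the highest sperm library (56.15%). Of the 12 Chrna9 cytosines 6 were higher and 2 lower in brain. All 12 (chr5:65937586-65955327) lay upstream of the RefSeq promoter entry (chr5:65966874-65967173), within the longer gene model used here. Chrna4 was 5.81 points lower in brain (46.1% ± 2.85, n = 5, against 40.3% ± 1.13, n = 8, adjusted p = 3.21e-04) and Chrnb2, its partner in the main brain receptor, was 2.68 points lower (8.88% ± 0.664, n = 4, against 6.196% ± 1.05, n = 8, adjusted p = 1.89e-03). Neither gene had an overlap between libraries. In Chrnb2 only 1 of 21 cytosines was called, at -46.7 points with overlapping libraries. The median difference of its cytosines was 0.371, and that of its start region 0.229. The common mean moved the Chrna4 and Chrnb2 window differences to -11.7 and -8.09, and requiring 6 libraries moved that of Chrna4 to -12.0. The common-mean shift takes 1 constant from each library, also at cytosines near 0%, so nothing is read from its larger values.
Chrna6 was 4.26 points lower in brain, at 78.8% ± 1.49 (n = 8) against 83.1% ± 4.93 (n = 5, adjusted p = 0.0451). Its groups overlapped, and the call was lost in 9 of 14 fits that left out 1 library (adjusted p from 0.0593 to 0.124), those without brain columns 1, 2, 3, 4, 5 or 8 or sperm columns 1, 4 or 5. With strands merged the difference was -1.89 and not called (adjusted p = 0.484). Over the cytosines with 6 libraries in both groups its difference was +9.86, so the direction of the Chrna6 window depends on the cytosines taken. Over such cytosines Chrna3 and Chrnb3 differed by 76.8 and 74.7 points. Chrna7 was at 26.3% in sperm and 26.9% in brain, a difference of 0.615 points (-1.34 to 2.57, adjusted p = 0.574) that was not called. Under the common mean it was called lower in brain (-5.25 points, adjusted p = 4.34e-04). Chrna5 was outside the window test, and both of its cytosines, at 12 and 47 bases from the start in the first exon, were called higher in brain, at 42.8 and 56.4% against 11.2 and 12.97% (adjusted p = 1.18e-03 and 1.09e-04).

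**Figure D2:**
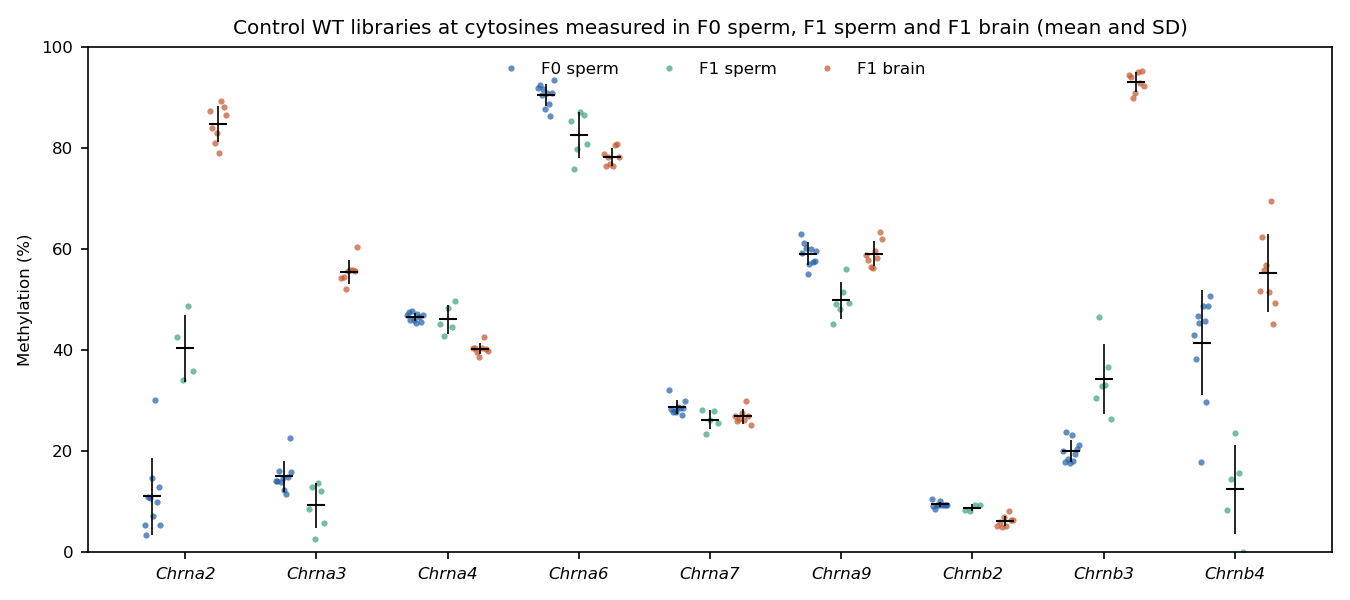
Methylation (y axis, percent) of 9 gene windows (x axis) in control WT F0 sperm, F1 sperm and F1 brain at cytosines scoreable in all 3, with 1 point per library and the mean and SD in black. In Chrna2, Chrna3, Chrna9, Chrnb3 and Chrnb4 all brain libraries lie above all F1 sperm libraries, by little in Chrna9. In Chrna4 and Chrnb2 all brain libraries lie below them. In Chrna2 and Chrnb3 the F1 sperm libraries also lie above the F0 sperm libraries.

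In Chrna3 and Chrnb3 the largest differences sat in a short stretch of coding sequence. The Chrna3 exon 5 region printed above was at 10.5 to 25.2% in F1 sperm (median 19.0%, n = 6) and at 94.1 to 95.5% in brain (median 94.99%, n = 8), which made a difference of 76.8 points (72.1 to 81.6, adjusted p = 6.61e-13, 6 cytosines). Chrnb3 exon 5 (chr8:27393740-27393798) was at 12.6 to 33.2% in F1 sperm (median 26.1%, n = 6) and 89.8 to 99.0% in brain (median 95.9%, n = 8), a difference of 70.0 points (64.3 to 75.7, adjusted p = 1.47e-11). Both stretches were nearly fully methylated in brain in every library, and no sperm library came near.
The largest single differences in these exons were 83.7 points at chr9:55016043 in Chrna3 (96.8% against 13.1%) and 77.3 points at chr8:27393782 in Chrnb3 (97.4% against 20.0%). In Chrna2 all 14 tested cytosines lay in exon 6 (chr14:66148956-66149125), so the region difference was that of the window. The cytosine with the smallest p was chr14:66149096, at 94.0% in brain and 31.1% in sperm. An intron region of Chrnb4 (chr9:55044498-55044578) was at 4.17, 4.60, 6.73 and 10.8% in sperm and 17.1 to 41.6% in brain, a smaller difference of 20.9 points (adjusted p = 3.15e-04). In Chrnb4 the high values lay instead in the last exon, where chr9:55029926 in the untranslated region was at 95.7% ± 6.03 (n = 5) in brain and 14.2% ± 12.1 (n = 4) in sperm. These Chrnb4 gaps are to F1 sperm. Over the same 6 cytosines of its window, control WT F0 sperm was at 41.5% ± 10.3 (n = 10). Of 21 Chrnb4 cytosines scoreable in F0 sperm and brain, 0 had a gap of over 50 points.

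The Chrna6 start was lower in brain. Its exon 1 region (chr8:27413689-27413794, 150 to 255 bases from the start) was at 95.8, 96.4, 97.6, 97.6 and 100% in F1 sperm and at 28.7 to 47.4% in brain (median 35.6%, n = 8), a difference of -59.2 points (-66.6 to -51.8, adjusted p = 5.05e-09). No brain library reached the sperm range. Chrna6 exon 5 (chr8:27407220-27407290) was high in both tissues, at 90.8% in brain and 95.2% in sperm (difference -4.49, adjusted p = 9.31e-03). That call was lost when 6 libraries were required (-1.99, adjusted p = 0.326), and the common mean gave -9.85. Exon 4 did not pass (difference 1.45, adjusted p = 0.369), but it was called higher in brain with strands merged (7.41, adjusted p = 9.52e-03) and lower under the common mean (-3.96, adjusted p = 0.0410). Among the 23 Chrna6 cytosines 7 were higher and 9 lower in brain, with differences from -73.1 to 73.0 points.
Regions near unmethylated starts did not pass. Under the common mean they were called lower in brain, at -3.03 (Chrna7), -3.40 (Chrnb2) and -3.28 (Chrna4) points. That shift takes 1 constant from each library, and it moved the median over all cytosines from 0.294 to -5.27 points. At stretches near 0% in both tissues it sets the direction of the difference, so nothing is read from these calls. The Chrna7 intron stretch was at 0.577% in sperm and 1.51% in brain (difference 0.928, -0.927 to 2.78, adjusted p = 0.395), and the Chrnb2 start at 0.848 and 1.08% (difference 0.229, adjusted p = 0.640). The Chrna4 stretch at 181038839 was at 1.08 and 1.30% (adjusted p = 0.792), and a coding region of Chrna4 near its 3′ end at 89.1 and 85.9% (difference -3.20, adjusted p = 0.396, and -9.38 with adjusted p = 1.97e-03 under the common mean). Within Chrna4 the called cytosines were mostly lower in brain (6 of 25, with 1 higher), led by chr2:181031003 in an intron at 59.4% against 94.0%. Chrnb2 had 1 called cytosine of 21, chr3:89754226 in the last exon, at 40.1% against 86.8% with overlapping libraries, and Chrna7 had 0 of 7.

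Leaving out each library in turn left 6 region calls each time, and 7 to 8 window calls. When every library was shifted to a common mean, the share of called windows that were higher in brain moved from 62.3 to 25.9% (regions from 53.2 to 23.0%, cytosines from 59.3 to 26.1%). Of the nicotinic windows, 4 were then higher and 4 lower, beside 21.7 and 62.2% of all windows. Of the regions 4 and 7 were (19.4 and 64.9% of all), and of the cytosines 47 and 59 (19.6 and 55.6% of all). Chrna2, Chrna3, Chrnb3 and Chrnb4 were higher in brain under each alternative that gave a value.

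At the same cytosines F0 sperm could be set beside F1 sperm. In Chrna2 exon 6, F0 control WT libraries ran from 3.44 to 30.2% with a median of 10.3% (n = 10), below all F1 sperm libraries (34.15 to 48.8%). In Chrnb3 exon 5 the F0 libraries ran from 3.02 to 7.79% (median 5.68%, n = 10) and the F1 libraries from 12.6 to 33.2%. In Chrna3 exon 5 the order was not the same, since F0 sperm (20.6 to 41.4%, median 26.4%) and F1 sperm (10.5 to 25.2%) overlapped.
The Chrna6 exon 1 region was at 97.5% in both kinds of sperm, and the Chrnb4 intron region at 4.77 and 6.58%. Over its 6 cytosines the Chrnb4 window ran from 17.9 to 50.8% in F0 sperm (median 45.6%, n = 10) and from 0 to 23.6% in F1 sperm, with overlap. F0 and F1 sperm differ in strain, generation and library set, which cannot be told apart, and the differences were not tested.

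**Figure D3:**
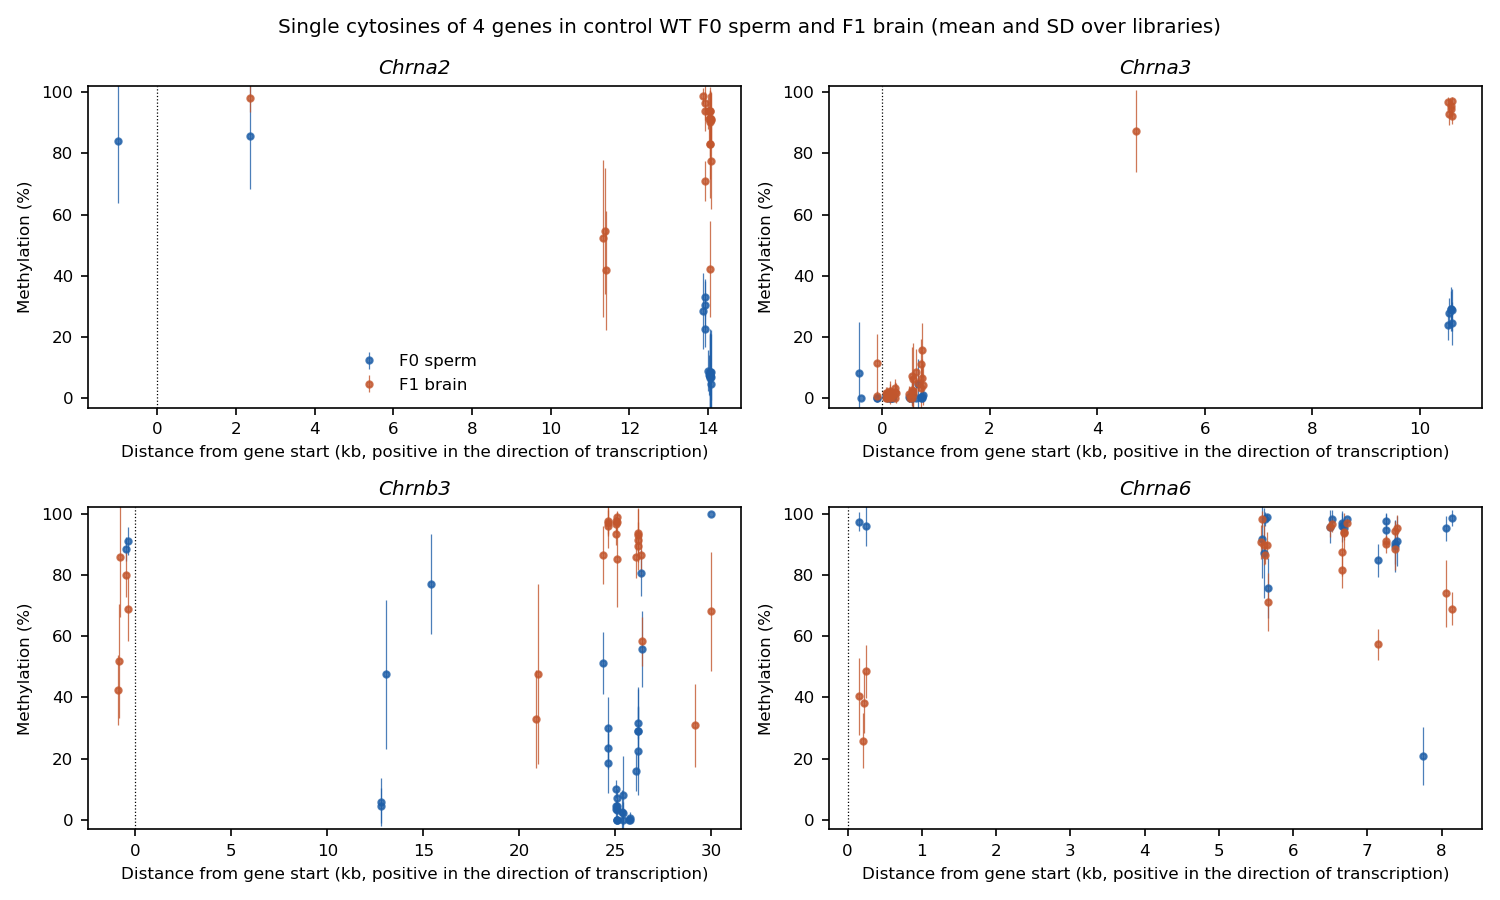
Mean methylation and SD (y axis, percent) of single scoreable cytosines of Chrna2, Chrna3, Chrnb3 and Chrna6 by distance from the gene start (x axis, kb) in control WT F0 sperm and F1 brain. Chrna2, Chrna3 and Chrnb3 have low sperm and high brain values in a late coding exon, the Chrna3 start is low in both, and the first exon of Chrna6 is high in sperm and lower in brain.

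Cytosines scoreable in both F0 sperm and F1 brain numbered 332. Of these, 190 were under 20% in both control WT groups (57.2%) and 54 were over 80% in both (16.3%). Over all 952889 cytosines scoreable in both tissues the shares were 53.2 and 20.4%. Low in sperm and high in brain were 18 (5.42%, against 2.97% of all), of which 10 lay in Chrna2 and 8 in Chrnb3, and 0 were high in sperm and low in brain (0.429% of all). By a gap of over 50 points, 35 were higher in brain (14 in Chrna2, 14 in Chrnb3, 6 in Chrna3 and 1 in Chrna5) and 4 higher in sperm (2 in Chrnb2 and 1 each in Chrna6 and Chrna7). These were 10.5 and 1.2% of the 332, beside 5.75 and 2.46% of all cytosines, where brain was also the more often higher, and no test was made of these shares. Chrna4 held 71 of the 190 cytosines that were low in both. All but 1 of the large gaps toward brain were thus in 3 genes, as a description of 332 positions that share fragments. F0 sperm and F1 brain differ in strain, generation and library set as well as tissue, which cannot be told apart in these counts. Between F1 sperm and F1 brain the median difference of the tested cytosines was 46.9 points in Chrna2, 61.7 in Chrnb3 and 70.3 in Chrna3.

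The regions of Chrna3 and Chrnb3 with low sperm values lay in the same part of the coding sequence, which encodes the end of the cysteine loop that gives this receptor family its name, and the Chrna2 region began within it and ran on downstream. This match was searched for after the values were seen. Over 80 bases the Chrna3 stretch was 82.5% identical to that of Chrna2 and of Chrna4, 80% to Chrna6, 77.5% to Chrnb2, 72.5% to Chrna5, 71.25% to Chrnb3 and Chrnb4, 66.25% to Chrna9 and 61.25% to Chrna7. Chrna2 and Chrnb3 were 73.75% identical. No values fell in the stretch of Chrna4, Chrna7, Chrna9 or Chrnb2.
F0 sperm levels differed across the 6 genes that could be read. Chrnb3 was at 4.71% ± 1.61 (n = 10), Chrna3 at 27.2% ± 5.64 (n = 10) and Chrna2 at 28.3% ± 5.38 (n = 10). Chrna5 was at 57.3% ± 20.7 (n = 8), with libraries from 20 to 85.7%. The Chrnb4 stretch, read at 2 cytosines, was at 95.1% ± 7.57 (n = 6), and Chrna6, also read at 2, at 96.4% ± 3.66 (n = 10). The stretches thus ran from nearly unmethylated to nearly fully methylated in sperm, and the 2 genes most identical to Chrna3 with values, Chrna2 and Chrna6, stood far apart.
In brain the 5 genes with values were all high, at 84.6% ± 3.71 (Chrna6), 89.9% ± 2.72 (Chrna2), 92.0% ± 5.95 (Chrna5), 94.8% ± 3.26 (Chrnb3) and 94.9% ± 0.501 (Chrna3), n = 8 each. In F1 sperm Chrna3 was at 18.0%, Chrnb3 at 24.8%, Chrna2 at 53.7% ± 15.6 over 2 cytosines (n = 5), and Chrna6 at 97.3%. The spread among genes was that of sperm and not of brain. No test was made across genes, which are not replicates.

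**Figure D4:**
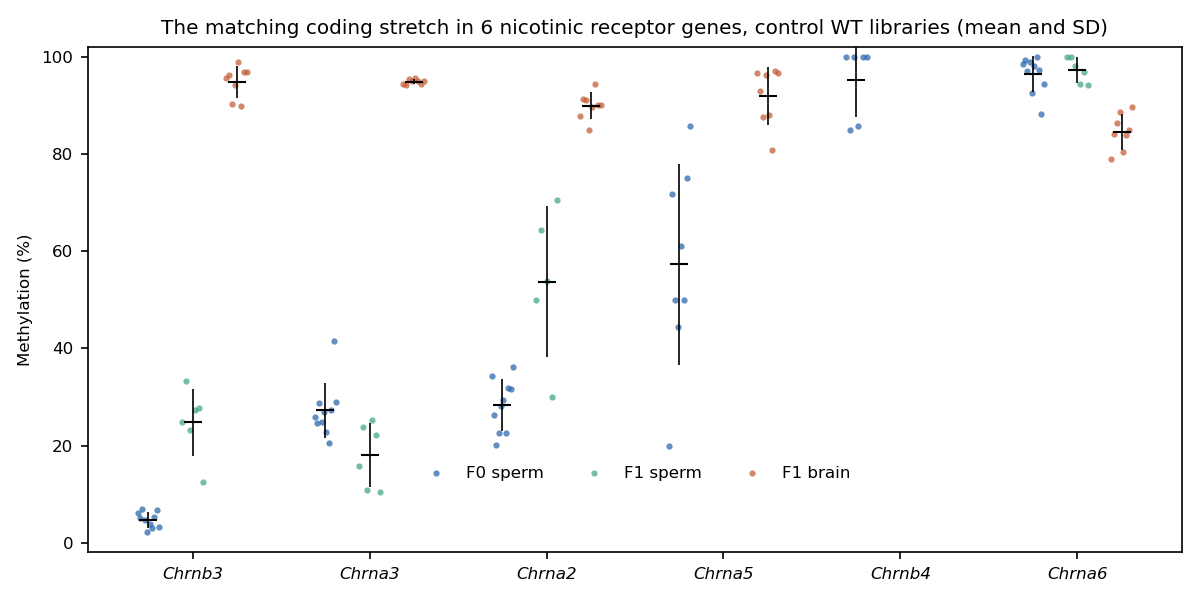
Methylation (y axis, percent) of the matching 80-base coding stretch of 6 genes (x axis) in control WT F0 sperm, F1 sperm and F1 brain, with 1 point per library and the mean and SD in black. Sperm ranges from 4.71% (Chrnb3) to 96.4% (Chrna6) in F0, while brain means lie between 84.6 and 94.9%. Chrna5 has no scoreable F1 sperm cytosine there and Chrnb4 has F0 sperm values only.

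The question of whether paternal CS, recovery from it or loss of NRF2 moved these genes was asked in 12 comparisons within F0 sperm, F1 sperm or F1 brain, each with limma over all features. No nicotinic gene window, region or cytosine was called in any of them. At an unadjusted p under 0.05 there were 6 of 119 window tests, 15 of 265 region tests and 228 of 4318 cytosine tests, and between 3.78 and 17.2% (windows), 3.92 and 10.4% (regions) and 3.80 and 6.72% (cytosines) of all features reached it in a comparison. The smallest adjusted p was 0.226 for a window, 0.485 for a region and 0.0688 for a cytosine. Window differences reached at most 4.78 points, and their medians per comparison lay between -0.524 and 0.309, beside medians of -0.436 to 0.472 for all windows. The comparisons with control WT share that group and are not independent of one another. Per the study's methods, tissue of control WT males was collected together with that of smoked WT males, and that of recovery males later. Recovery, age and collection time thus cannot be told apart in the recovery comparisons.

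Few features were called over all genes. Of all windows, regions and cytosines, 0%, 0.00159% and 0.000586% were called in smoked WT F0 sperm against control WT. For recovery 1 the shares were 0%, 0% and 0.000293%, for recovery 2 0%, 0.00637% and 0.000586%, and for recovery 3 0.0117%, 0.043% and 0.00293%. The genotype comparisons had the most, with 0.31%, 0.409% and 0.0923% for control Nrf2-/- and 0.257%, 0.358% and 0.0805% for smoked Nrf2-/- F0 sperm, both against control WT.
Smoked against control Nrf2-/- F0 sperm had 0%, 0.00637% and 0.00176%, and F1 sperm 0%, 0% and 0.00135%. In F1 brain the shares were 0%, 0.00124% and 0% for smoked WT sires, 0.00569%, 0.0124% and 0.00216% for control Nrf2-/- sires and 0.00569%, 0.0198% and 0.00331% for smoked Nrf2-/- sires, each against control WT sires, and 0.0626%, 0.00124% and 0.000935% for smoked against control Nrf2-/- sires. Beside these shares, a count of 0 among the nicotinic features is not a result about them.

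**Figure D5:**
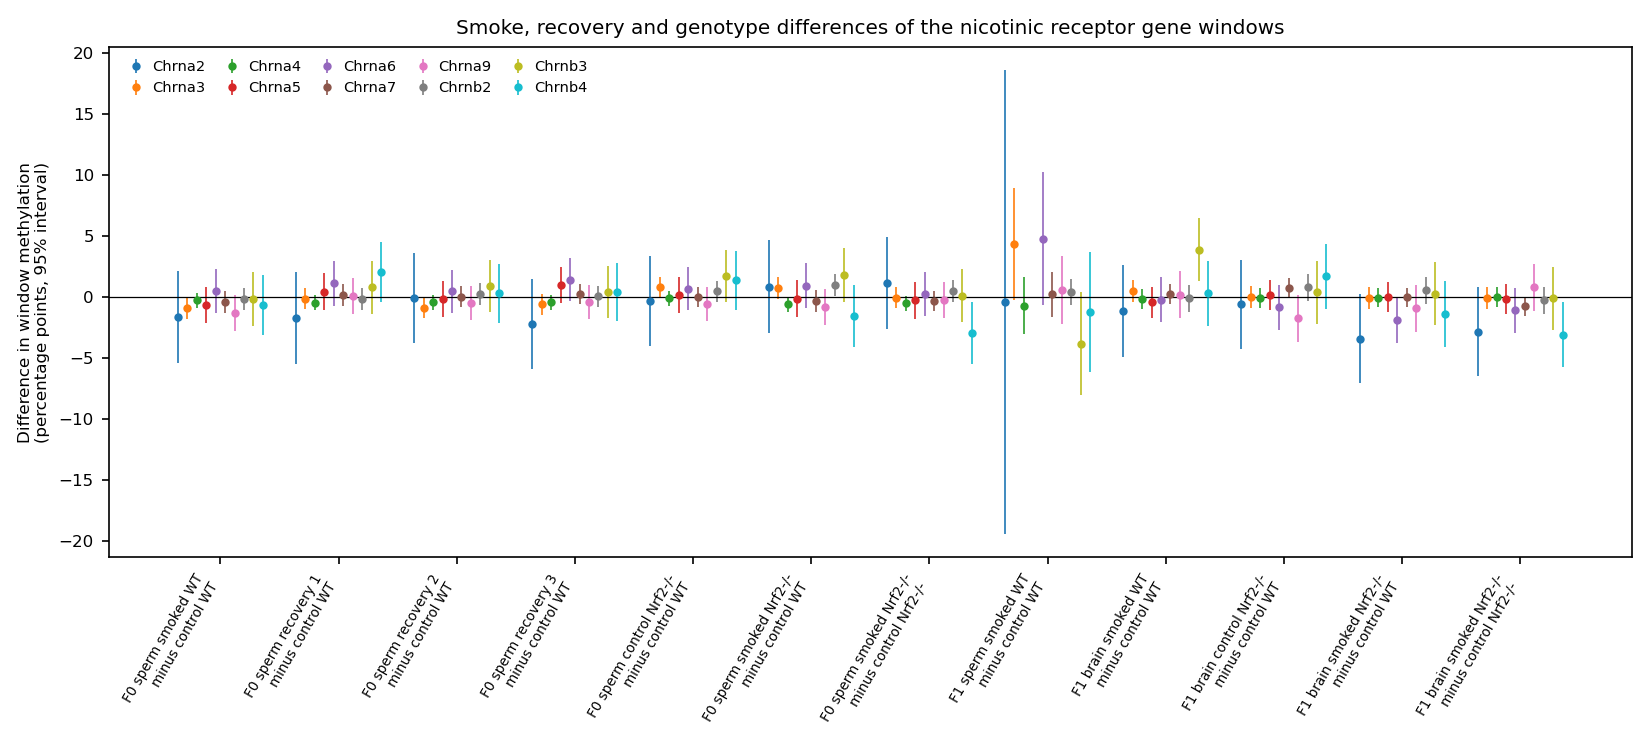
Difference in window methylation (y axis, percentage points, with the 95% interval of limma) for the 10 genes in 12 comparisons (x axis). The widest interval is that of Chrna2 in F1 sperm (-19.4 to 18.6 points), and the largest difference is 4.78 points (Chrna6 in F1 sperm).

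How closely a difference was estimated depended on the gene. The intervals are not adjusted, while a call needed adjustment over all windows. A difference wider than its interval could thus stay uncalled. Over the 12 comparisons the 95% interval of a window difference was at most 1.10 points to either side for Chrnb2, 2.35 for Chrna4 and 1.83 for Chrna7. These are the subunit genes of the common brain receptors. For Chrna5 it was at most 1.51 over 11. Most of their cytosines were under 20% in control WT F0 sperm (32 of 38, 71 of 90, 30 of 37 and 27 of 37, in this order). A change at the other cytosines would be diluted in the window. The 6 Chrnb2 cytosines outside the promoter part had SDs of 3.87 to 6.29 points in F0 sperm groups. Chrna2 was the least certain, at 3.64 to 19.0 points to either side, and for its window in F1 sperm (difference -0.417, -19.4 to 18.6) a difference within these bounds could not be told from 0.

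The exon 5 stretch of Chrna3 was the nicotinic region with the smallest p in smoked WT, recovery 2 and recovery 3 F0 sperm. Control WT libraries ran from 20.6 to 41.4% with a median of 26.4% (n = 10), and smoked WT libraries from 16.6 to 30.3% with a median of 21.4% (n = 9). The difference was -5.17 points (-8.66 to -1.67, unadjusted limma p = 0.00440, adjusted p = 1). The groups overlapped, and the region did not pass.
Recovery 2 libraries ran from 15.7 to 28.1% with a median of 21.0% (difference -6.23, adjusted p = 0.804), and recovery 3 libraries from 18.7 to 26.1% with a median of 23.5% (difference -4.17, adjusted p = 0.721). Recovery 1 was at 23.7% ± 2.30 (n = 9). The control group's highest library, column 9 at 41.4%, stood above the others. Over all positions this library had the fewest values (800578) and the highest mean (40.8%) of the F0 sperm libraries. A part of this in its Chrna3 value was not tested. Without column 9 the differences were -3.59, -4.65 and -2.60 points for smoked WT, recovery 2 and recovery 3, with adjusted p of 1, 1 and 0.816. Leaving out this library was decided after its values had been seen.
Nrf2-/- sperm was not lower. Control Nrf2-/- libraries were at 28.4% ± 3.54 (n = 10) and smoked Nrf2-/- libraries at 31.2% ± 3.66 (n = 9, from 27.0 to 36.8%). The smoke difference in Nrf2-/- minus that in WT was 8.01 points (3.07 to 12.95), with an adjusted p of 1.00 over all regions, where 0% were called. In F1 sperm, sons of smoked sires were at 24.2% ± 4.75 (n = 6) and sons of control sires at 18.0% ± 6.56 (n = 6), a difference of 6.15 points (-0.784 to 13.1, adjusted p = 0.903), and the libraries overlapped. In brain the same stretch stayed between 92.2 and 96.1% in all libraries of 4 groups.

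The study counted a region as changed by size, when at least 33.3% of its cytosines and its mean differed by more than 5 points between group means. This rule was applied as a description without a test. The study's read minimum per cytosine could not be applied, because no read counts accompany the percents. In F0 sperm it took 1 of 22 nicotinic regions for smoked WT (2.61% of all regions), 0 for recovery 1 (3.4%), 1 for recovery 2 (2.53%) and 0 for recovery 3 (4.1%). It took 0 for control Nrf2-/- (5.1%), 1 for smoked Nrf2-/- (4.93%), both against control WT, and 0 for smoked against control Nrf2-/- (3.73%). The regions were Chrna3 exon 5 in smoked WT and recovery 2, and an untranslated part of Chrnb3 (chr8:27394818-27394924) at +5.56 points in smoked Nrf2-/-. Without control WT column 9 the rule took 0 regions in smoked WT and in recovery 2, where Chrna3 exon 5 changed by -3.59 and -4.65 points.
In F1 sperm it took 1 of 11 (13.1%), again Chrna3 exon 5. In F1 brain it took 3 of 25 for smoked WT sires (8.33%), 1 for control Nrf2-/- sires (7.53%) and 4 for smoked Nrf2-/- sires (13.6%), each against control WT sires, and 2 for smoked against control Nrf2-/- sires (16%). With 25 regions or fewer, 1 region is a large step in these counts, and nothing is read from them. Of the 14 calls by size, 10 were lost when some single library was left out. For Chrna3 exon 5 these were control WT columns 3, 9 and 10 and smoked WT columns 1, 2 and 7 in smoked WT, control WT column 9 in recovery 2, and control WT columns 3 and 6 and smoked WT column 4 in F1 sperm. For the untranslated part of Chrnb3 they were control WT columns 4, 6 and 7 and smoked Nrf2-/- columns 1 and 7. In brain, the intron region of Chrna4 was lost for smoked WT sires without control WT columns 3 or 8 or smoked WT columns 1 or 4, for smoked Nrf2-/- against control WT sires without control WT column 6 or smoked Nrf2-/- column 2, and against control Nrf2-/- sires without smoked Nrf2-/- column 2. The upstream region of Chrnb3 was lost for smoked Nrf2-/- sires without their column 8, the Chrna6 exon 1 region without control WT columns 1, 6 or 7 or smoked Nrf2-/- columns 2, 4 or 5, and the Chrnb4 region between Nrf2-/- groups without control column 4. The Chrna2 region in 3 comparisons and the Chrnb3 region in smoked WT sires were taken in each such count. Leaving out 1 library also added calls. The count ran from 0 to 1 for recovery 3 (1 in 8 of 20 such counts) and control Nrf2-/- F0 sperm (1 in 3 of 20), and reached 2 for recovery 2 and for smoked Nrf2-/- F0 sperm (2 counts each) and for F1 sperm (4 of 13). In F1 brain it ran from 2 to 3 for smoked WT sires, from 1 to 2 for control Nrf2-/- sires, from 2 to 5 for smoked Nrf2-/- sires and from 2 to 5 for smoked against control Nrf2-/- sires. It stayed at 0 for recovery 1 and for smoked against control Nrf2-/- F0 sperm, so most of these counts, those of 0 included, depend on single libraries. The shares of all regions with 1 library left out were not counted.

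The brain regions taken by size were spread over 5 genes, and their libraries varied widely. A region upstream of Chrnb3 (chr8:27367789-27367907, at -922 to -804 bases from the start) ran from 36.2 to 76.5% in sons of control WT sires (median 54.9%, n = 8) and from 62.5 to 83.1% in sons of smoked WT sires (median 78.6%, n = 7). The difference between library means was 16.9 points (3.23 to 30.5, unadjusted limma p = 0.0177, adjusted p = 1), and the libraries overlapped. Its size-rule change, taken from the group means of each cytosine, was +13.5 points, and +8.95 in sons of smoked Nrf2-/- sires.
A region of Chrna2 at the exon 5 border (chr14:66146366-66146438) was taken in 3 comparisons, at -7.83 points for smoked WT sires, -8.29 for control Nrf2-/- sires and -12.6 for smoked Nrf2-/- sires. With 1 library left out these ran, in the same order, from -10.5 to -5.16, from -10.8 to -5.62 and from -16.8 to -9.90 points. Its control WT libraries ran from 31.9 to 68.3%, and those of the smoked Nrf2-/- group from 25 to 75.0% (n = 6). An intron region of Chrna4 (chr2:181035297-181035409) was at +5.42 points for smoked WT and -6.71 for smoked Nrf2-/- sires against the same control group. These 3 regions rested on 3 cytosines each, and their SDs between libraries were 5.46 to 18.4 points.
The others were the exon 1 region of Chrna6 (-5.18 points, smoked Nrf2-/- against control WT sires) and the intron region of Chrnb4 (-7.05 points, smoked against control Nrf2-/- sires). The Chrna6 call was lost without control WT columns 1, 6 or 7, or without smoked Nrf2-/- columns 2, 4 or 5. The latter stood at 31.7, 31.95 and 32.7% over all positions, below the control WT libraries (33.85 to 36.45%). A part of this in the call was not tested. Smoked WT F1 brain column 8, whose mean over all positions was the lowest, had no value in the Chrnb3 region, and without this library 3 regions were taken by size and 0 windows and 0 regions called.

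Among windows in F1 brain, Chrnb3 had the largest smoke difference. Libraries of sons of control WT sires ran from 77.5 to 81.6% with a median of 78.6% (n = 8), and those of sons of smoked WT sires from 78.0 to 87.7% with a median of 83.7% (n = 8). The difference was 3.88 points (1.30 to 6.45, adjusted p = 0.703), and the libraries overlapped. The difference between the smoke effects of the genotypes was -3.99 points (-7.63 to -0.342, adjusted p = 0.222), with 0.00569% of all windows and 0% of all regions called in that test.
Chrnb4 was lower in smoked than in control Nrf2-/- sires' sons (28.8% ± 2.95 against 31.9% ± 2.34, n = 8 each, adjusted p = 0.226) and in smoked than in control Nrf2-/- F0 sperm (32.1% ± 4.51, n = 8, against 35.1% ± 1.73, n = 10, adjusted p = 0.784). Both pairs overlapped and neither passed.

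In the other comparisons the nicotinic region with the smallest p differed by little, and all pairs overlapped. For recovery 1 it was the Chrnb4 intron region (chr9:55044464-55044578), at 6.38% ± 2.71 (n = 9) against 3.86% ± 2.75 in control WT (n = 10, adjusted p = 0.936). For control Nrf2-/- F0 sperm it was Chrnb3 exon 5 at 5.44% ± 1.78 against 3.81% ± 1.38 (n = 10 each, adjusted p = 0.658), and for smoked Nrf2-/- the Chrnb2 start at 1.36% ± 0.611 (n = 9) against 0.645% ± 0.437 (n = 10, adjusted p = 0.485). These 3 lay in stretches that were almost unmethylated in both groups.
Between smoked and control Nrf2-/- F0 sperm it was the last coding part of Chrna4 (95.3% ± 2.25, n = 9, against 97.6% ± 1.69, n = 10, adjusted p = 0.740), and in F1 sperm the Chrna6 exon 1 region (94.9% ± 2.18, n = 6, against 97.4% ± 1.68, n = 5, adjusted p = 0.903). In F1 brain it was a first-exon stretch of Chrna5 for control Nrf2-/- sires (0.954 against 0.453%, adjusted p = 0.646), Chrna3 exon 5 for smoked Nrf2-/- sires (94.2 against 94.9%, adjusted p = 0.560) and Chrnb3 exon 5 between smoked and control Nrf2-/- sires (95.6 against 93.5%, adjusted p = 0.540). None of these regions was called. Over the alternatives the Chrna5 difference ran from 0.0291 to 0.505 points, and the Chrna6 difference in F1 sperm from -4.13 to -2.50 points.

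The cytosine closest to the threshold lay in Chrna4. It was chr2:181039436, in an intron 4110 bases from the start used here and beside the RefSeq promoter entry of this gene. Control WT F0 sperm libraries ran there from 0 to 12.9% with a median of 4.22% (n = 10). Control Nrf2-/- libraries ran from 0 to 1.37% with a median of 0% (n = 10). The difference was -4.46 points (adjusted p = 0.0688). The same cytosine had the smallest p for recovery 1 (-3.32, adjusted p = 0.852), recovery 2 (-4.08, adjusted p = 0.897) and smoked Nrf2-/- (-4.60, adjusted p = 0.100), all against the same 10 control libraries.
Its groups overlapped at 0% in all 4 comparisons, and none passed.

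A list of 26 other cholinergic genes was read the same way, holding muscle-type receptor subunits, muscarinic receptors, enzymes and transporters of acetylcholine, and receptor chaperones and modulators. In the 12 comparisons 21 to 24 were tested and 0 called. Between brain and F1 sperm, both from sons of control WT sires, 10 of 22 were higher in brain and 4 lower, beside 41.2% higher and 24.9% lower of all windows, and nothing is read from that count.
Chrna10, the partner of Chrna9 in hair cells, was at 0.599% ± 0.730 (n = 4) in sperm and 83.2% ± 6.78 (n = 8) in brain (adjusted p = 3.37e-10). Bche, a cholinesterase, was at 36.8 and 88.3% (adjusted p = 5.92e-13), and the muscarinic receptor genes Chrm5 (20.1 and 72.8%), Chrm2 (27.8 and 52.7%) and Chrm4 (0.801 and 20.4%) were higher in brain as well. Chrnb1, the muscle beta subunit, was at 0.682 and 15.9%. Chrne, a muscle receptor subunit, was lower in brain (96.8 and 73.9%, adjusted p = 8.14e-08), and Slc18a3, the vesicular acetylcholine transporter, differed by 2.88 points. Chat and Slc5a7, which make acetylcholine and take up choline, differed by -0.917 and -0.877 points and did not pass (adjusted p = 0.244 and 0.259).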

How the data were processed

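RRBS libraries were made with MspI and TaqαI digests, and per the study's methods sperm passed a somatic cell lysis. Per the submitters' processing notes and the study's methods, the authors aligned reads to mm10 with the Bismark pipeline and deposited, per group, a methylation percent for each CpG cytosine and library. The Bismark version, and whether a read minimum was applied to these tables, are not given in the sources used here. No read counts accompany the percents, so read depth is unknown, no counting interval is given, and its error enters only through the spread between libraries. Columns carry facility numbers that match no sample label and were assigned by group, numbered in table order (0 unused columns, no columns of comparisons by the authors). Labels do not say whether libraries of a group are separate animals beyond their being separate samples, and p-values measure the spread between them. In F1 the exposure and genotype were those of the sire, and no label gives the sire or litter of a son. Sons were treated as independent, so F1 intervals and p-values would be too small if sons share a sire.

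A cytosine was scoreable with at least 4 libraries in every group of the tissue. Windows needed 3 scoreable cytosines. Regions joined scoreable cytosines up to 100 bp apart, with 3 or more over more than 50 bp. A library's value needed 50% of the cytosines, was adjusted for which ones it had by the cytosines' means, and was kept between 0 and 100%. Groups were compared with limma 3.58.1 in R 4.3.3 (group means, empirical Bayes, all groups of a tissue in 1 fit, Benjamini-Hochberg over all features, threshold 0.05, tests two-sided), with Python 3.11.15, numpy 2.4.6, pandas 2.3.3 and matplotlib 3.10.9. The script was tested on simulated data. Gene models were those of GENCODE M21 for GRCm38, whose chromosomes matched the positions (0 positions outside a CpG). All 10 genes were named, with every feature past the threshold up to 10 in a comparison and otherwise the 3 of each gene with the smallest p, or, with none, the region with the smallest p. Up to 8 called other cholinergic genes were named by p, and the 3 genes with the most similar group means for each member. Further features were named after their values were seen. Alternatives were 6 libraries per group, strands merged, libraries shifted to a common mean, the 2 groups alone, 300 bp joining, a 10-point size threshold and leaving out single libraries. The members and lists were chosen with earlier results of these data known.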

Additional observations from a re-analysis of the deposited data

Results flagged for a closer look

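Libraries far from the others of their group, by the gap to the nearest library relative to the group's range, were found in 9 of 128 combinations of gene and group. Chance flags about 1 in 20. In control WT F0 sperm these were Chrna2 at 34.6% (next 23.7%, column 7), Chrna3 at 8.97% (next 6.496%, column 9) and Chrna4 at 24.3% (next 21.2%, column 1), each the highest of 10. Chrna9 had its lowest library at 45.3% in smoked WT (next 50.6%). In recovery 2, Chrnb3 had its highest library at 34.7% (next 27.1%) and Chrnb4 its lowest at 25.3% (next 32.5%). In F1 brain, Chrna6 had its lowest library at 75.3% in the control Nrf2-/- group (next 77.9%), and Chrnb2 its highest at 13.1% in control WT (next 10.6%) and at 13.9% in smoked WT (next 10.8%). The 3 values in control WT sperm came from 3 different libraries. Of these, column 9 was also the sparsest F0 sperm library, with the highest mean over all positions. No cause was tested.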

How the results depend on the processing

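All 153 alternative counts of nicotinic windows, regions and cytosines in the 12 smoke, recovery and genotype comparisons stayed at 0. Of 24 size-rule counts 10 kept within 1.5 times. A 10-point threshold gave 0 for smoked WT, recovery 2 and smoked Nrf2-/- F0 sperm, for F1 sperm, and for control Nrf2-/- and smoked against control Nrf2-/- F1 brain, and 1 for smoked WT and for smoked Nrf2-/- F1 brain. Joining over 300 bp gave 1 for recovery 1, for recovery 3 and for smoked against control Nrf2-/- F0 sperm, and 2 for control Nrf2-/- F0 sperm, F1 sperm and control Nrf2-/- F1 brain. The shares of all regions under these settings are not given here, so nothing is read from these counts. The cause was not tested.

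Between brain and F1 sperm, requiring 6 libraries left 5 windows, 2 regions and 31 cytosines to test, of which 5, 1 and 23 were called (66.2, 65.5 and 58.2% of all features), with Chrna6 at +9.86 points. Shifting libraries to a common mean called 11 of 11 regions (84.3% of all). It reversed, and called, the Chrna7 window (-5.25), the Chrna4 island (-3.28), the Chrnb2 start (-3.40), the Chrna7 intron (-3.03) and Chrna6 exon 4 (-3.96). At stretches near 0% the shift itself sets the direction, so nothing is read from the Chrna4 island, Chrnb2 start and Chrna7 intron values. It also ended the Chrna9 window call (2.23), while requiring 6 libraries ended that of Chrna6 exon 5 (-1.99) and merging strands that of the Chrna6 window (-1.89). Leaving out 1 library gave 7 to 8 windows, 6 to 6 regions and 72 to 75 cytosines, and the Chrna7 window ran from -0.106 to 1.09 and the Chrna4 island from -0.122 to 0.572. Leaving out F0 control WT column 9 (size-rule counts 0 for smoked WT and recovery 2), each library in turn for the size rule, or F1 brain smoked WT column 8, was chosen after seeing the data.

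No paired analysis was possible because the columns carry facility numbers and no replicate number. Depth is unknown, F1 sperm libraries were the sparsest, and strain variants at CpGs of the CAST/EiJ allele in sons were not examined.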

Other observations

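Genes with group means most like those of a member were taken over the 13 groups among 15229 protein-coding genes with a value in each group, leaving out those whose window overlaps the member, by the mean absolute difference of the window means. The 3 nearest genes are given, with the first and the last difference. For Chrna2 they were Fut2 (1.66 points), Foxr2 and Acmsd (2.54 points). Chrna3 was nearest to Ddx54 (0.819 points), Cdr2l and Pole2 (1.05 points). For Chrna4 they were Zc3h4 (0.476 points), Mllt3 and Mrps9 (0.756 points). Chrna6 was nearest to Scn10a (1.23 points), Arrdc5 and Lrriq3 (1.53 points). For Chrna7 they were Phtf2 (0.586 points), Vwc2 and Fnbp1l (0.834 points). Chrna9 was nearest to Ccdc60 (1.49 points), Sfi1 and Kif13a (1.7 points). For Chrnb2 they were Tsnaxip1 (0.542 points), Mxi1 and Fam193a (0.738 points). Chrnb3 was nearest to Itgad (1.66 points), Tex43 and Sirpb1b (2.88 points). For Chrnb4 they were Rbm41 (1.92 points), Atp5c1 and Selenow (2.21 points). Chrna5, with 2 scoreable cytosines in F1 sperm against the 3 required for a window, was not compared.

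Within Chrna6 a single intron cytosine (chr8:27406197) was at 20.8% ± 9.36 (n = 6) in control WT F0 sperm, in a gene whose window stood at 90.8%. Group means over the 7 F0 groups ran from 20.8 to 37.7%. It was picked after its value was seen.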
